A study of Mus musculus with 6 samples.

Results

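The cells described here were myeloid cells of the inflamed mouse spinal cord, gated on monocyte genes, with the highest combined level of Nos2, Inhba, Il6, Il12a and Clec4e. They were chosen by measured values, in 2 steps. A cell entered the base gate with at least 10 UMIs (counted molecules) in sum of the monocyte genes Ccr2, Ly6c2, Fn1, F10, Tgfbi, S100a4 and Plac8 and at most 2 UMIs in sum of the microglial genes Tmem119, P2ry12, Siglech, Sparc and Olfml3. The score was the mean over the 5 named genes of the natural log of 1 plus counts per 10000, and the top 15% of the pooled base-gate cells were kept. This gave 765 top-score cells among 5106 base-gate cells, 7121 cells of the diseased libraries and 9078 cells in all; the 4341 other base-gate cells were the comparison.

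The series sampled spinal cord cells that carry the myeloid surface protein CD11b, from C57BL/6 mice aged 10 weeks. The mice either were healthy or had been given a myelin peptide and were taken as signs of experimental autoimmune encephalomyelitis (EAE) began, a disease used to model multiple sclerosis. All libraries shared myelin depletion and staining with 10 µM DCFDA, a dye that fluoresces when oxidised by reactive oxygen species (ROS), and cells were sorted as dye-positive (ROS+) or dye-negative (ROS-). Diseased ROS+, diseased ROS- and healthy ROS- cells gave 2 libraries each, and no genetic change is named. The labels leave unsaid which animals each library came from, so p-values measure only the spread between these libraries.

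Monocytes that enter the spinal cord in EAE become macrophages, and macrophages exposed to microbial products or to interferon gamma can switch on inducible nitric oxide synthase. That enzyme, encoded by Nos2, makes nitric oxide from arginine. Inhba encodes the subunit of activin A, a ligand of the transforming growth factor beta family. Il6 encodes interleukin 6, Il12a the smaller subunit of interleukin 12, and Clec4e the receptor Mincle, which binds mycobacterial glycolipids and material of dead cells and signals through Syk, Card9, Bcl10 and Malt1.

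The 4 EAE libraries held between 11909166 and 23407825 UMIs, with medians of 5467 to 9543 UMIs per cell. The top-score cells had median UMIs of 9358, 6036, 7522 and 6680 in ROS+ 1, ROS+ 2, ROS- 1 and ROS- 2, and the other base-gate cells 8798.5, 5290.5, 7211.5 and 6321. All 4 medians were therefore a little higher in the top-score cells. Libraries shared 42 cell barcodes, and 10 top-score cells carried one of them. A doublet caller marked 23 of all cells (0.253%), too few for it to have worked, and none of them was a top-score cell, so no doublet was removed.

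The sequences before the transcription starts of Il6 and Clec4e are shown because the score genes define the cells, and these were the 2 score genes whose RefSeq promoters (GRCm38.p6) held a searched motif. Capitals mark the matches. The first sequence is at chr5:30012864-30013113 on the plus strand and the second at chr6:123289872-123290121 on the minus strand, each ending at the last base before the start.
Il6: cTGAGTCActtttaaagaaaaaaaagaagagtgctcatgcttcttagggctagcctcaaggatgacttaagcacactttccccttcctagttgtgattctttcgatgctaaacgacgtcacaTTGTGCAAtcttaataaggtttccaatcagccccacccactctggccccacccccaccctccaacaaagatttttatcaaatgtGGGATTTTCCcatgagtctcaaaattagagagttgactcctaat
Clec4e: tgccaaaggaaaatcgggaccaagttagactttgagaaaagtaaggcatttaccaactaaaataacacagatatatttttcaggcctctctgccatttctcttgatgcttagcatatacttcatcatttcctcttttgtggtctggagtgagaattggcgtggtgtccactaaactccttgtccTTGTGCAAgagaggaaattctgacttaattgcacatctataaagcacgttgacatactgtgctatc

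In the same build Nos2 lies at chr11:78920787-78960226, Inhba at chr13:16004256-16031609, Il6 at chr5:30013114-30019975, Il12a at chr3:68690644-68698550 and Clec4e at chr6:123281789-123289871. Promoters were found for 4 of the 5 score genes, the exception being Nos2. Both strands were searched from 250 bases before to 50 bases after each start for 4 short patterns. The nuclear factor kappa B (NF-kB) pattern GGGANNTTCC, held by 1.47% of 32851 RefSeq promoters of this length, matched Il6 at position -44. The AP-1 pattern TGANTCA (7.81% of promoters) matched Il6 at -249. The C/EBP pattern TTGNNCAA (6.40%) matched Il6 at -128 and Clec4e at -66, in both cases with the letters TTGTGCAA. The interferon-stimulated pattern GAAANNGAAA (3.44%) matched none of them, and the promoter of Inhba and both promoters of Il12a held no match to any of the 4. The AP-1 and C/EBP patterns read alike on both strands, the matches did not overlap each other, and a match describes letters only.

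The 5 score genes went into the choice of cells, so their levels are given as a description with no test. Nos2 stood at 3.35, 3.69, 4.97 and 5.55 UMIs per 10000 in the top-score cells of ROS+ 1, ROS+ 2, ROS- 1 and ROS- 2, and at 0.629, 0.795, 0.528 and 1.01 in the other base-gate cells. Inhba stood at 4.80, 7.64, 6.20 and 7.94 against 0.633, 1.07, 0.273 and 1.00. Clec4e was at 14.6, 11.7, 19.1 and 17.02 against 4.00, 3.82, 3.28 and 4.34. These 3 genes carried most of the score: 85.4% of top-score cells had a Nos2 UMI, 91.0% an Inhba UMI and 99.0% a Clec4e UMI, against 28.9%, 23.9% and 72.0% of the other cells.

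Il6 and Il12a, in contrast, were found in a minority of the cells. Il6 was at 0.580, 1.61, 0.747 and 1.34 UMIs per 10000 in the top-score cells, and at 0.0957, 0.295, 0.0986 and 0.203 in the others. A UMI of Il6 was seen in 32.4% of top-score cells and of Il12a in 32.5%, against 8.27% and 4.86% of the others. The most frequent combination was Nos2, Inhba and Clec4e without the other genes, in 288 cells (37.6%), followed by these with Il12a in 146 cells and with Il6 in 110. All 5 genes were detected together in 44 top-score cells (5.75%) and in 8 of the other cells, while 59 top-score cells had 2 of them, 383 had 3 and 279 had 4. Il6 and Il12a in the same cell were seen in 3.09%, 12.6%, 5.88% and 7.58% of the top-score cells of ROS+ 1, ROS+ 2, ROS- 1 and ROS- 2. Nos2, Inhba and Clec4e therefore describe most of the cells, and Il6 and Il12a parts of them, at this depth.

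**Figure D1:**
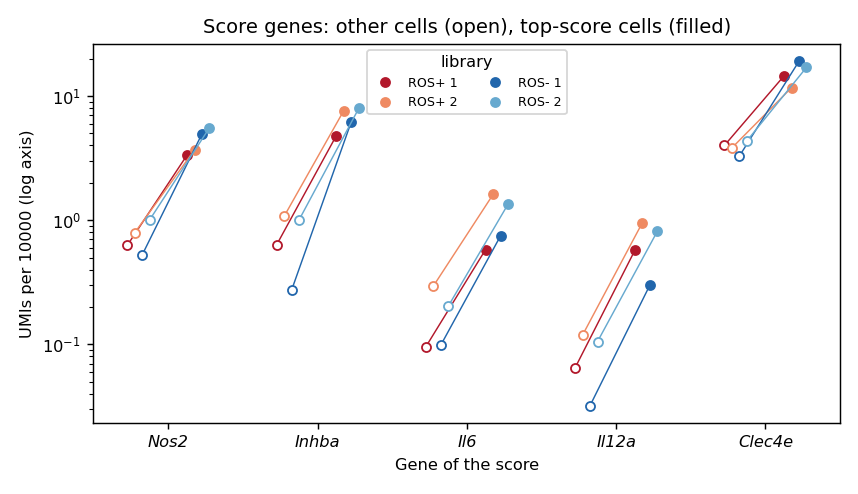
UMIs per 10000 (log axis) of the 5 genes of the score in the other base-gate cells (open circles) and the top-score cells (filled circles), with a line for each of the 4 EAE libraries. Each gene is higher in the top-score cells of every library, which the choice of cells fixes; for Il12a the top-score level in ROS- 1 is 0.299.

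The score had no gap at the threshold. It lay at 0.98662 in the lowest cell kept and at 0.98627 in the highest cell left out, with 77 cells within 0.05 above and 96 within 0.05 below. Of the 20 cells nearest on each side, Nos2 had a UMI in 14 inside and 16 outside, Inhba in 14 and 14, and Il6 in 4 and 5. The median score was 1.25 in the top-score cells and 0.354 in the others, and 17.2% of base-gate cells scored 0. The top-score cells are therefore the upper end of a range, not a separated type.

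How far the 5 genes went together could be tested by leaving each out of the score, choosing the top 15% by the other 4, and reading only the gene left out. The genes were proposed together from these data, so this describes their link and is no independent support. Il12a differed most, at 39.2, 75.4, 22.6 and 69.7 CPM (counts relative to each library's total, with TMM scaling) against 8.41, 16.97, 3.35 and 14.3, with a log2 fold change of 2.23 ± 0.12 (SE, 4 libraries; adjusted p = 8.86e-11 by edgeR's quasi-likelihood test). Inhba followed at 2.02 ± 0.13, Nos2 at 1.70 ± 0.08 and Clec4e at 1.53 ± 0.08 (adjusted p from 5.26e-23 to 3.99e-11). Il6 had the smallest difference, 0.96 ± 0.14 (adjusted p = 4.80e-06). Its levels were 19.8, 72.3, 37.7 and 94.0 CPM in cells chosen by the other 4 genes and 12.98, 49.4, 11.1 and 34.2 in the rest. Each of the 5 genes was higher in every library. Without ROS- 2 the difference of Il6 was 0.66.

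The label was checked against marker genes. Of the macrophage genes, Cd14 (99.5% of top-score cells with a UMI), Csf1r (91.9%) and Cd68 (84.6%) were found in most cells, while Adgre1, which encodes F4/80, was found in 28.4%. The other base-gate cells had 90.0%, 88.9%, 85.3% and 39.3% in the same order. Among the gate genes, Ccr2, the receptor by which monocytes leave the bone marrow, was at 1.04, 2.03, 1.01 and 1.03 UMIs per 10000 in the top-score cells and at 3.06, 5.03, 3.32 and 2.95 in the others. The 2 ranges did not overlap. F10, the clotting factor, went the other way, with 7.66 to 9.30 against 3.00 to 5.28. Ly6c2 (11.7 to 17.2 against 8.09 to 16.3) and Fn1 (3.47 to 5.76 against 2.74 to 5.74) overlapped. The rule required gate genes, and microglia also express Cd14, Csf1r and Cd68, so these levels describe the cells and do not test their origin. Sall1, a transcription factor of microglia that the gate did not use, had a UMI in 0.392% of top-score cells and 0.576% of the others.

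Of markers for other cell types in the top-score cells, T cell genes summed to 0.893 to 20.4 CPM (2.72 to 284 in the other base-gate cells), with Trac, Cd4 and Cd8a at 0. Natural killer cell genes summed to 12.5 to 18.7 CPM (17.2 to 180), with Ncr1, Klrb1c, Prf1 and Eomes at 0. Neutrophil genes summed to 164 to 390 CPM (137 to 2148), with Ly6g at 0. Dendritic cell genes summed to 2156 to 9179 CPM (1657 to 4361), most of it Ccl5. Microglial genes outside the gate summed to 1678 to 2476 CPM (2061 to 4300). Cells with several UMIs of T, natural killer, neutrophil or dendritic cell genes made up 28 of the top-score cells (3.66%) and 226 of the others (5.21%). Counts over all genes are given also without these cells, here or in the closing section. The comparisons with Saa3 and Arg1 cells, given below, were not run without them.

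Top-score cells were far more frequent in the replicate 2 libraries than in the replicate 1 libraries. They made up 7.30% of the base-gate cells in ROS+ 1 (97 cells; exact Clopper-Pearson 95% interval 5.96% to 8.83%) and 17.01% in ROS+ 2 (357 cells; 15.4% to 18.7%). In the dye-negative libraries they made up 5.48% in ROS- 1 (34 cells; 3.83% to 7.58%) and 26.2% in ROS- 2 (277 cells; 23.6% to 28.9%). Intervals cover counting error only. The replicate 2 libraries gave 634 of the 765 cells (82.9%), so a pooled value mostly describes them.

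The dye gate was not used by the rule, and the question was whether the share differed between gates. It averaged 12.2% ± 6.87 (SD, n = 2) in ROS+ and 15.8% ± 14.6 (n = 2) in ROS- libraries, a difference of -3.68 percentage points (ROS+ minus ROS-; exact two-sided permutation test p = 1; 2 libraries against 2 cannot give a p below 1 in 3). Within replicate numbers the difference was 1.81 points in replicate 1 and -9.17 in replicate 2, so the direction was not the same. It was 1.18 points without ROS+ 1 and 6.67 without ROS- 2. No effect of the gate was detectable with 2 libraries each. Each cell was also thinned to 3000 UMIs, leaving out 87 shallower cells of ROS+ 2 and 47 of ROS- 2. The base gate and the score were then applied again, so the base-gate cells were not the same ones. They numbered 1409, 2036, 673 and 1022 in ROS+ 1, ROS+ 2, ROS- 1 and ROS- 2. The shares were 8.59%, 18.1%, 8.32% and 26.1%, in the same order of libraries.

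**Figure D2:**
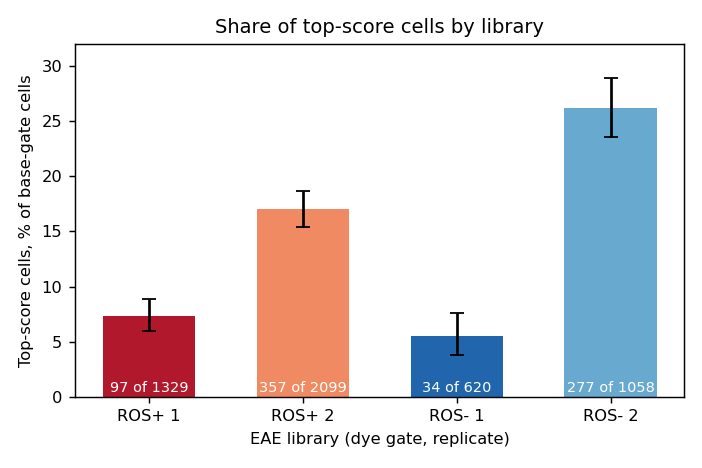
Top-score cells as a percentage of base-gate cells in each of the 4 EAE libraries, with exact 95% Clopper-Pearson intervals for counting error as error bars and the cell counts in the bars. Both replicate 2 libraries (17.01% and 26.2%) lie above both replicate 1 libraries (7.30% and 5.48%).

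No healthy cell passed the base gate. With 1755 and 202 cells in the healthy libraries, shares up to 0.210% and 1.81% remain possible by counting error alone (upper ends of exact 95% intervals). The gate counts UMIs, and healthy cells were shallower, with medians of 2178 and 3617.5 UMIs against 5467 to 9543 in the EAE libraries. A gate at equal depth was not run for healthy cells. As a background for the score genes, cells with microglial and not monocyte genes were examined. In the 1620 and 192 such cells of the healthy libraries (median 2232 and 3622.5 UMIs), Nos2 and Inhba had no UMI and Clec4e had one in 0.247% and 0.521%. In the same kind of cell in ROS- 1 (180 cells, median 5073 UMIs) and ROS- 2 (92 cells, median 3905 UMIs), Nos2 was seen in 1.11% and 5.43% and Clec4e in 16.7% and 18.5%. Il6 had a UMI in 4.07% and 5.73% of the healthy microglial-gene cells, at 0.165 and 0.140 UMIs per 10000. In the other base-gate cells, which were sequenced more deeply, it stood at 0.0957 to 0.295 per 10000 (8.27% of cells with a UMI). The top-score cells were chosen for high values of these genes, so their own shares are not set against this background.

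The main comparison set the top-score cells against the other base-gate cells of the same library. The cells chosen for 5 inflammatory genes carried higher levels of most of the inflammatory mediators, NF-kB genes and glycolysis and hypoxia genes tested. Early monocyte genes and macrophage maturation genes held more lower than higher genes. Of 10261 genes tested, 856 were higher (8.34%) and 961 lower (9.37%), 17.7% in all (edgeR with the library as a block, at an adjusted p under 0.05). At a fold of at least 2 the counts were 101 higher (0.984%) and 186 lower (1.81%). The split depended on scaling: it was 669 higher and 1304 lower without TMM factors, which moved the median of all genes from -0.05 to -0.11, and 606 and 401 with DESeq2. Without ROS- 2 it was 621 and 397. Without the cells that carry markers of other types it was 955 and 770, and 1595 of the 1817 calls were shared.

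Many cytokines and other mediators of inflammation rose. Of 16 such genes tested, 11 were higher, 1 lower and 4 not called, with a median log2 fold change of 0.86 against -0.05 for all genes. In this comparison, shares of higher genes are to be read against the 8.34% of all genes, and of lower genes against 9.37%. Il1a, which encodes interleukin 1 alpha, stood at 357, 706, 370 and 759 CPM in the top-score cells of ROS+ 1, ROS+ 2, ROS- 1 and ROS- 2 and at 121, 207, 94.98 and 211 in the others. The 2 ranges did not overlap, and the difference was 3.403-fold (log2 1.77 ± 0.07, adjusted p = 7.20e-18). Tnf, which encodes tumour necrosis factor, was at 247, 191, 152 and 156 against 79.2, 59.0, 90.1 and 59.1 (log2 1.49 ± 0.09, adjusted p = 9.48e-14). Irg1, the enzyme that makes itaconate, was at 843, 916, 810 and 935 against 299, 349, 246 and 347 (1.49 ± 0.07). Ptgs2, the inducible cyclooxygenase of prostaglandin synthesis, was at 1.47 ± 0.11 on the log2 scale. Il1rn, the natural antagonist of the interleukin 1 receptor, rose with them, from 409 to 781 CPM in the others to between 1056 and 1740.3 CPM (1.36 ± 0.08).

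Il1b, named after its values were seen, was high in both sets of cells, at 2983 to 4642 CPM against 2271 to 2727 (log2 0.57 ± 0.06). When cells were thinned to 3000 UMIs, Il1b was seen in 94.8% to 100% of top-score cells and 90.5% to 92.5% of the others, and Tnf in 20.6% to 36.1% against 12.7% to 16.3%. Il1rn was seen in 87.6% to 97.1% against 52.1% to 73.8%. Il12b, whose product pairs with that of Il12a to form interleukin 12, was seen in 0.364% of the thinned top-score cells of ROS- 2 and in none of the other 3 libraries. Il10 was seen in 0.290% of those of ROS+ 2 and in none of the rest, so neither could be compared at this depth.

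Other genes with the largest rises had varied roles. Procr, the endothelial protein C receptor, was at 150, 125, 400 and 177 CPM against 42.0, 33.5, 55.6 and 66.9, a 3.73-fold difference (log2 1.90 ± 0.12, adjusted p = 9.48e-14). Niacr1, a receptor for niacin and ketone bodies, rose 3.55-fold, with 129, 128, 155 and 225 CPM against 35.1, 44.7, 31.1 and 57.5. Malt1, the protease that acts below Mincle, was at 93.3, 106, 159 and 144 against 27.3, 46.1, 28.9 and 55.3 (1.52 ± 0.11). Olr1, a scavenger receptor for oxidised lipoprotein, rose by 1.35 ± 0.10 and Ralgds, an activator of Ral proteins, by 1.33 ± 0.09. Gm15056, at 1.86 ± 0.16, is a predicted gene. The rule that named these genes required the same direction in all 4 libraries, so that agreement is no result. Each remained called in every alternative run.

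**Figure D3:**
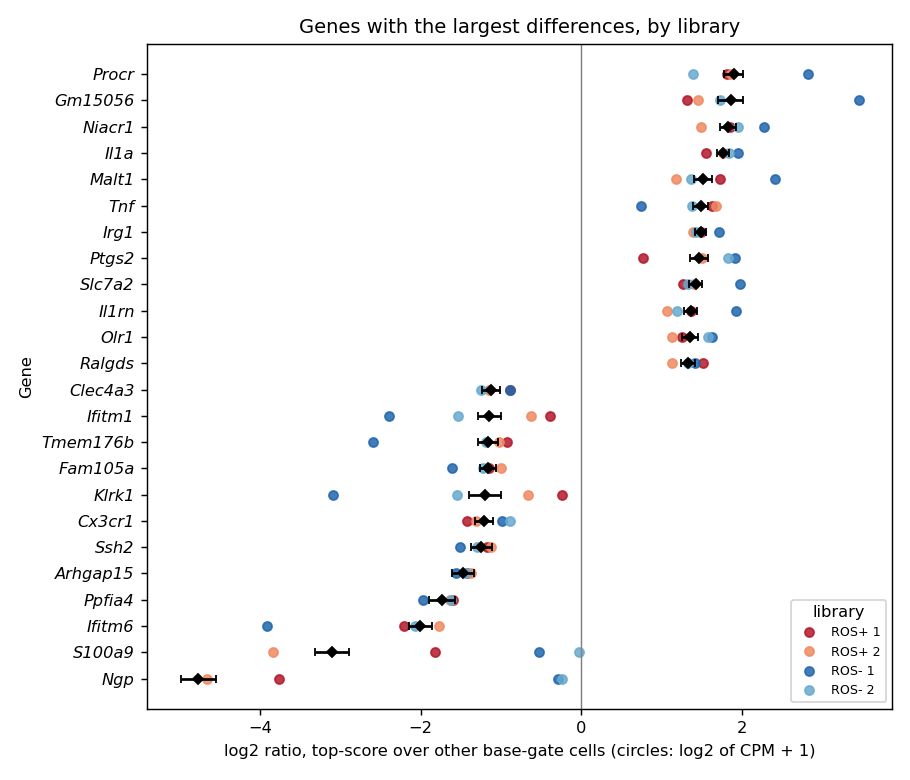
Log2 ratio of top-score over other base-gate cells for the 24 genes with the largest called differences among well-expressed genes; diamonds are edgeR estimates with standard errors and circles are the ratios within each EAE library, from CPM plus 1. All 12 higher genes lie right of 0 in every library, which the choice of genes fixes. For Ngp and S100a9 the dye-negative libraries lie near 0.

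The transcript of the microRNA 155 host gene was named after its values were seen. The feature that the files call mmu-mir-155 has the gene identifier of Mir155hg, at chr16:84713023-84715245 in GRCm38.p6. It stood at 66.0, 61.2, 37.0 and 66.1 CPM in the top-score cells and at 9.94, 8.25, 12.9 and 16.99 in the others, a 5.47-fold difference (log2 2.45 ± 0.15, adjusted p = 6.05e-14). Libraries of transcript 3' ends count this long precursor and not the mature microRNAs cut from it, whose level was not measured. The mature sequences are shown because they are the products by which the gene acts, with the seed (bases 2 to 8), by which a microRNA pairs with its targets, in capitals, as RefSeq gives them at chr16:84714143-84714165 and chr16:84714182-84714202 on the plus strand. The 2 arms have different seeds.
miR-155-5p: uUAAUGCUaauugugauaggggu
miR-155-3p: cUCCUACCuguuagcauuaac

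Genes around nitric oxide synthesis rose in part. Slc7a2, which imports the substrate arginine, was at 374, 352, 300 and 331 CPM against 155, 132, 75.0 and 131 (log2 1.43 ± 0.08, adjusted p = 2.29e-14). Gch1, the first enzyme in the synthesis of the cofactor tetrahydrobiopterin, was at 168, 245, 163 and 218 against 98.4, 157, 72.5 and 110 (0.83 ± 0.08). Ass1, which recycles citrulline toward arginine, rose by 0.52 ± 0.07, as did Arg2, the mitochondrial arginase, by 0.52 ± 0.09. Of 13 genes of this group tested, 5 were higher, 1 lower and 7 not called (median 0.11). Arg1, the cytosolic arginase that competes for the same substrate, was named after its values were seen. It stood at 1849, 2505, 992 and 1997 CPM against 1921, 2263, 735 and 2018 (0.11 ± 0.07, adjusted p = 0.334), abundant in both sets of cells and not called. The activin and transforming growth factor beta pathway, to which the product of Inhba belongs, had 1 of 15 genes called, Tgfb1 at 0.31 ± 0.07.

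Many genes that sense damage or relay NF-kB signals rose. Of 25 pattern recognition and Mincle signalling genes, 14 were higher, 3 lower and 8 not called (median 0.39). Clec4n, which encodes a C-type lectin, rose by 0.97 ± 0.07, Clec7a, the beta-glucan receptor, by 0.89 ± 0.06 and Fpr2, a formyl peptide receptor, by 0.87 ± 0.08. Of 24 NF-kB components and feedback genes, 18 were higher, none was lower and 6 were not called (median 0.48). Sod2, the mitochondrial superoxide dismutase, stood at 2003, 1796, 2331 and 1999 CPM against 1011, 1047, 821 and 1063 (1.03 ± 0.08), and the survival gene Bcl2a1d rose by 1.13 ± 0.07. In the interleukin 6 receptor and signalling list, 4 of 13 genes were higher and 3 lower, and 2 were higher without ROS+ 1. Il6ra, the receptor for interleukin 6, fell by 0.95 on the log2 scale (SE 0.15), at 15.1, 16.9, 14.8 and 15.8 CPM against 26.7, 32.4, 34.5 and 31.1, and Socs3, its feedback inhibitor, rose by 0.33 ± 0.07.

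Glycolysis and hypoxia genes were higher nearly throughout, with small differences. Of 23 tested, 20 were higher, 1 lower and 2 not called (median 0.44). Ldha, lactate dehydrogenase, stood at 1759, 2043, 1606 and 2254 CPM against 1292, 1413, 1018 and 1478 (0.56 ± 0.06, 1.47-fold). Slc16a3, which exports lactate, was at 0.70 ± 0.07, Pfkp, a phosphofructokinase, at 0.87 ± 0.08, and the hypoxia-inducible Ero1l at 0.71 ± 0.08. In oxidative phosphorylation 19 of 20 genes were not called and Ndufa4 fell by 0.65 (SE 0.10), with a list median of -0.05, the same as that of all genes. Without ROS- 1, 3 oxidative phosphorylation genes were called higher. Replicate 1 libraries alone called 9 glycolysis and hypoxia genes higher.

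Among genes that make or remove reactive oxygen species, both oxidase membrane subunits rose. Cybb, which encodes the core enzyme of the NADPH oxidase, was at 1399.7, 972, 1306 and 1051 CPM against 867, 663, 672 and 635 (0.72 ± 0.07, 1.65-fold, adjusted p = 6.17e-10), with ranges that did not overlap. Its membrane partner Cyba rose by 0.32 ± 0.06, Rac2, a small GTPase of the complex, fell by 0.56 (SE 0.08), and the 4 other genes of 7 were not called. Of 23 glutathione, Nrf2 and scavenging genes, 11 were higher and 2 lower (median 0.17). Slc7a11, the cystine importer for glutathione synthesis, was at 583, 500, 729 and 559 CPM against 285, 206, 226 and 227 (1.30 ± 0.08), and Fth1, the ferritin heavy chain that stores iron, rose 1.62-fold (0.70 ± 0.06). Prdx1 (0.56 ± 0.07) and Prdx5 (0.51 ± 0.06), which remove peroxides, rose with them.

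In the coagulation and fibrinolysis list, 6 of 14 genes were higher and 2 lower. Plaur, the urokinase receptor, rose by 0.69 ± 0.09. Thbs1, the adhesive glycoprotein thrombospondin, fell by 1.09 (SE 0.11), at 70.7, 74.4, 33.3 and 25.9 CPM against 152, 141, 48.7 and 74.1. Procr, given above, belongs to the same list.

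Chemokines moved in both directions. Of 20 tested, 10 were higher, 6 lower and 4 not called (median 0.24), and the lower ones were 2 without ROS- 2. Cxcl2, which attracts neutrophils, stood at 3152 to 3861 CPM against 1458 to 2412 (0.84 ± 0.07). Cxcl9, an interferon gamma target that attracts T cells, was at 1191, 811, 1302 and 591 against 504, 595, 524 and 428 (0.84 ± 0.10). Ccl3 was at 1.29 ± 0.12, with ROS- 1 the exception (62.9 against 65.0 CPM), and Ccl5 at 0.68 ± 0.08. Of the lower genes, Ccl22 (log2 -1.77) and Ccl17 (-1.21) are made by mature dendritic cells. Both rested on ROS- 2, without which Ccl22 was at 0.90 and Ccl17 at -0.0041 and neither was called, and DESeq2 called neither.

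Several genes for contact with T cells rose, while most class II genes were not called. Cd40 was at 187, 137, 307 and 160 CPM against 69.1, 85.3, 93.2 and 90.8 (1.07 ± 0.11), Cd274, the ligand PD-L1, rose by 0.90 ± 0.08 and Slamf7 by 0.85 ± 0.09. Of 11 costimulatory and checkpoint genes 5 were higher and 2 lower, among the lower ones 4632428N05Rik (log2 -0.84, edgeR adjusted p = 4.0e-08). Class II presentation had 1 of 10 genes higher, H2-Ab1 at 0.31 ± 0.06, and 2 lower, H2-DMa and H2-Oa, neither of which was called in every alternative. Without ROS- 1, 4 class II genes were higher and none lower. In the interferon response list 7 of 25 genes were higher and 2 lower, or 4 higher without ROS+ 1. Ifi205 rose by 1.03 ± 0.08 and Gbp5, a guanylate-binding protein induced by interferon gamma, by 0.73 ± 0.10.

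**Figure D4:**
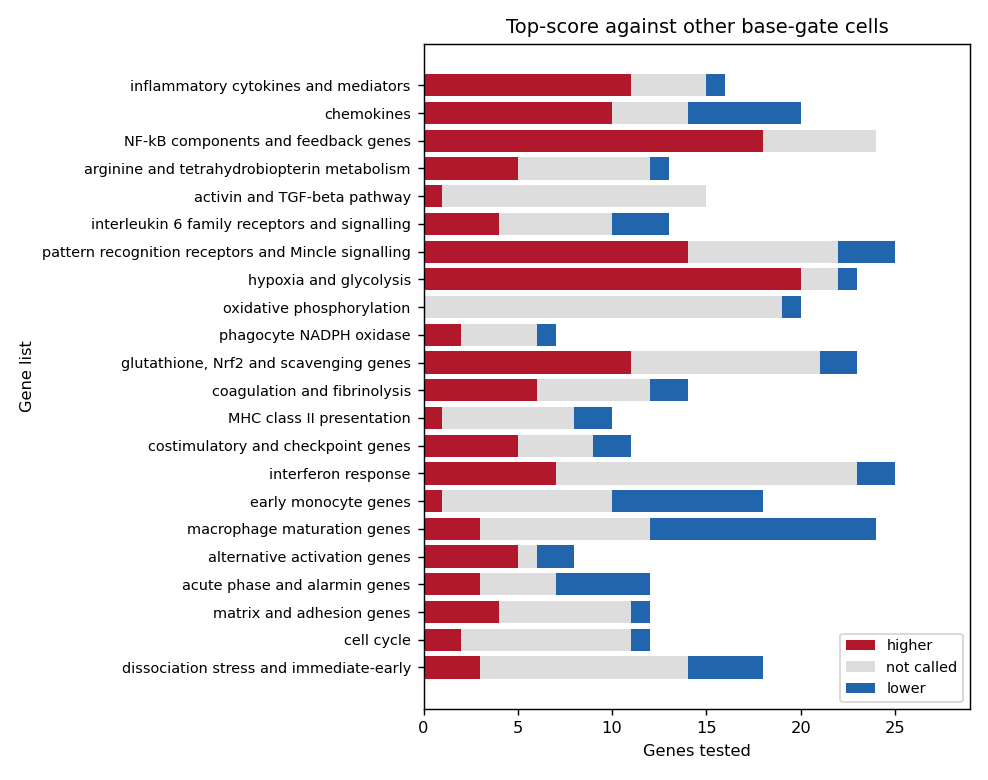
Number of genes of each list called higher, called lower or not called in top-score against other base-gate cells (edgeR, adjusted p under 0.05), over the genes tested. Of glycolysis and hypoxia genes 20 of 23 are higher and of NF-kB genes 18 of 24, while 12 of 24 macrophage maturation genes are lower.

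The lower genes included those of early monocytes and of mature macrophages. Of 18 early monocyte genes, 8 were lower, 1 higher and 9 not called (median -0.10). With replicate 1 libraries alone 3 were lower and 1 higher (median 0.08). Ifitm6 was at 9.43, 36.8, 3.70 and 9.66 CPM against 47.2, 128, 69.8 and 43.9 (log2 -2.00 ± 0.14, adjusted p = 1.44e-12). Cx3cr1, the fractalkine receptor of patrolling monocytes and microglia, was at 61.3, 17.3, 77.7 and 30.5 CPM against 166, 44.1, 155 and 57.1 (-1.21 ± 0.11). Of 24 macrophage maturation genes, 12 were lower, 3 higher and 9 not called (median -0.21). With replicate 1 libraries alone the direction of the counts turned, with 4 higher and 2 lower (median -0.0047). The complement gene C1qa was at -0.43 ± 0.07 and Trem2, a lipid receptor, at -0.50 ± 0.08. Ctsb, a lysosomal protease, was among the 3 that rose (0.39 ± 0.07). The microglial marker list also had 3 of 7 genes lower, Cx3cr1, Trem2 and Cst3, and the part of microglial RNA in these differences was not tested.

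Several further lower genes were Ppfia4 (-1.73 ± 0.16), Arhgap15 (-1.47 ± 0.14), Ssh2 (-1.24 ± 0.13), Fam105a (-1.16 ± 0.10), Tmem176b (-1.16 ± 0.13) and the lectin Clec4a3 (-1.12 ± 0.11). Each was lower in 4 of 4 libraries, which the rule that named them required. Ifitm1 was lower as well (-1.14 ± 0.15), most in ROS- 1, where it stood at 366 against 1926 CPM. Klrk1, which natural killer and T cells carry, was at 11.1 against 102 CPM there and at 13.2 against 15.8 in ROS+ 1. Among genes with an average log2 CPM of at least 5 that moved alike in all 4 libraries, the largest falls were those of Ngp and S100a9, which neutrophils hold in their granules and cytosol. Ngp was at 2.83 and 5.64 CPM against 50.9 and 166 in the ROS+ libraries and at 0 against 0.222 and 0.181 in the ROS- libraries. S100a9 was at 58.4 and 33.8 against 209 and 495, and at 0 and 0.508 against 0.445 and 0.542. DESeq2 called neither (adjusted p = 0.248 and 0.186), and S100a9 was at -1.79 on the log2 scale without ROS+ 2 in place of -3.10. Among scarcer genes Csf2, a growth factor made by T cells, was at 3.70 against 27.1 CPM in ROS- 1 and at 0 against 5.60 in ROS- 2, and at 0 in both sets of both ROS+ libraries (log2 -3.995, adjusted p = 0.00115). It was not called without ROS- 2. Of 9 neutrophil markers 8 were lower, of 9 T cell markers 7 and of 11 dendritic cell markers 5. With DESeq2 the counts of lower genes were 1 of 7, 0 of 1 and 0 of 4 genes for which it gave an adjusted p. Cells that carry such markers were chosen by many of these same genes, so the lists were not counted again without them. Single libraries also bore on them: 3 neutrophil markers were lower without ROS+ 2, 1 T cell marker without ROS- 2 and 2 without ROS- 1, and no dendritic cell marker without ROS- 2.

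Among other groups, 5 of 8 alternative activation genes were higher, 2 lower, with 3 higher without ROS+ 2. Egr2, a transcription factor of that state, rose by 0.86 ± 0.12, while Il1r2, the decoy receptor of interleukin 1, was at -1.38 ± 0.20. Of 12 matrix and adhesion genes 4 rose, among them Timp1, an inhibitor of metalloproteinases (1.03 ± 0.10), and the tetraspanin Cd9 (0.84 ± 0.07). Of 12 acute phase and alarmin genes 3 were higher and 5 lower (2 and 3 with DESeq2), with Saa3 at 0.59 ± 0.09 and Ptx3, a soluble pattern receptor, at 3.23 ± 0.41 from low levels (0.943 to 25.9 CPM against 0.531 to 1.33). Of 12 cell cycle genes 2 were higher, or none without ROS+ 2, and Mki67 was at 0.94 ± 0.20. Of 18 dissociation stress genes 3 were higher and 4 lower, with Fos at -0.31 ± 0.06; without ROS- 2 the counts were 2 and 1 and Fos was not called. The astrocyte genes Slc1a2 (1.70 ± 0.17, at 18.5 to 39.7 against 4.23 to 14.8 CPM) and Gfap (0.70 ± 0.20) were higher, the latter not in every alternative. Whether astrocyte RNA has a part in this was not tested.

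Top-score cells were next placed among other expression states of the base gate, each taken as the top 15% by the mean log level of its own genes. Of the top-score cells, 22.4% were also in the state defined by Saa3, Cxcl1 and Cxcl2, against 13.7% of the other base-gate cells. The share was higher in every library, with 50.5%, 24.1%, 20.6% and 10.5% against 23.9%, 13.03%, 5.63% and 4.99% in ROS+ 1, ROS+ 2, ROS- 1 and ROS- 2. For the state defined by Arg1 and Mmp12 the shares were 19.5% and 14.2%, and the direction differed between libraries (10.3% against 11.1% in ROS+ 1). The state of Ms4a7, Apoe and Apoc2 held 4.84% of top-score and 16.8% of other cells, and that of Lrg1, Ifitm6 and Vcan 6.80% and 16.4%, both lower in every library. Class II (12.7% and 15.4%) and interferon (16.1% and 14.8%) states had no common direction. In no other state were 291 of the top-score cells (38.0%), against 33.1% of the others. These shares are a description, and the scores share cells and depth.

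**Figure D5:**
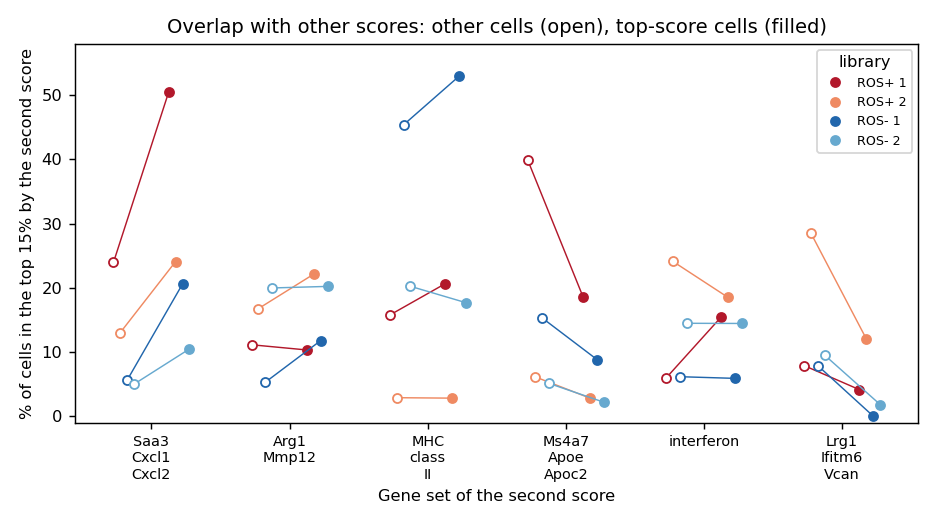
Percentage of other base-gate cells (open circles) and of top-score cells (filled circles) that also lie in the top 15% by a second score, for 6 second scores and each of the 4 EAE libraries. In all 4 libraries the Saa3 set is more frequent among top-score cells, and the Ms4a7 and Lrg1 sets are less frequent.

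Cells in only 1 of 2 states were compared directly with the Saa3, Cxcl1 and Cxcl2 cells and with the Arg1 and Mmp12 cells. These comparisons share the top-score cells with each other and with the main one. In ROS+ 1, ROS+ 2, ROS- 1 and ROS- 2, the first set 48, 271, 27 and 248 top-score cells against 295, 227, 33 and 39 Saa3 cells. The second, in the same order, set 87, 278, 30 and 221 top-score cells against 137, 292, 31 and 156 Arg1 cells. Against the Saa3 cells 361 of 7774 genes were higher (4.64%) and 231 lower (2.97%), 7.62% in all. The total was 338 without ROS+ 1 and 325 without ROS+ 2, in place of 592. Against the Arg1 cells 752 of 8200 were higher (9.17%) and 516 lower (6.29%), 15.5% in all. The total was 573 without ROS- 2, in place of 1268, and the split was 606 higher and 719 lower without TMM factors.

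Against the Saa3 cells, mmu-mir-155 was at 70.1, 53.5, 42.4 and 64.3 CPM in the top-score cells and at 15.05, 13.2, 33.6 and 0 in the Saa3 cells (log2 2.10 ± 0.26). Procr was at 1.71 ± 0.18, the actin-binding gene Cnn3 at 1.68 ± 0.15 and the protease inhibitors Serpina3f and Serpina3g at 1.66 ± 0.24 and 1.46 ± 0.12. Thbs1 was at 47.5, 65.6, 33.0 and 18.1 CPM in the top-score cells and at 150, 175, 108 and 97.9 in the Saa3 cells (-1.65 ± 0.16). Lower too were Tmem37 (-1.67 ± 0.23), Clec4a1 (-1.28 ± 0.21), Selm (-1.26 ± 0.19) and Rcbtb2 (-1.20 ± 0.19). Of the lists, 7 of 13 inflammatory, 12 of 24 NF-kB, 10 of 23 glycolysis and hypoxia, 11 of 24 interferon response and 5 of 10 class II genes were higher, and 14 of 24 macrophage maturation genes were lower.

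Against the Arg1 cells, which express the arginase and metalloelastase genes, Cxcl9 was at 1253, 950, 1461 and 669 CPM in the top-score cells and at 267, 245, 329 and 166 in the Arg1 cells (2.08 ± 0.09, adjusted p = 1.28e-16). Cd40 was at 200, 156, 341 and 176 against 51.1, 37.8, 45.9 and 44.3 (2.09 ± 0.12). The interferon-inducible Fam26f was at 2.13 ± 0.11, Traf1, an adaptor of tumour necrosis factor receptors, at 1.97 ± 0.17, Procr at 2.22 ± 0.18 and mmu-mir-155 at 3.14 ± 0.21. Of 24 interferon response genes 22 were higher, of 24 NF-kB genes 20 and of 13 inflammatory genes 9, and 15 of 22 macrophage maturation genes were lower. Glycolysis and hypoxia genes had 8 of 23 higher and a median of 0.12, against -0.02 for all genes. The lower genes with the largest differences were Tmem37 (-1.68 ± 0.18), Dhrs3 (-1.52 ± 0.16), Rcbtb2 (-1.48 ± 0.15), Ptplad2 (-1.47 ± 0.17), Cxcl14 (-1.42 ± 0.22) and Mmp8 (-1.34 ± 0.20).

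Genes from the main comparison were also read beside both states. Il1a was at 1.15 ± 0.10 against the Saa3 cells and 1.57 ± 0.10 against the Arg1 cells, Irg1 at 1.15 ± 0.09 and 1.80 ± 0.09, and Slc7a2 at 0.77 ± 0.12 and 0.84 ± 0.10. Tnf was at 0.84 ± 0.13 and 1.70 ± 0.12. Arg1, which the choice of Arg1 cells used, was at -0.56 ± 0.08 against the Saa3 cells. The difference between the 2 comparisons was not tested for any gene.

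The last comparison asked whether top-score cells differed in their genes between the dye gates. Of 7764 genes tested, edgeR called 1 (0.0129%), S100a9, named after its value was seen, and 319 had an unadjusted p under 0.05 (4.11%). No gene was called lower in ROS+ cells (0%). S100a9 stood at 57.1 and 32.8 CPM in the ROS+ libraries and at 0 and 0.493 in the ROS- libraries (adjusted p = 0.0128). It encodes an alarmin that neutrophils hold in large amounts, and neutrophil markers, S100a9 among them, summed to 164 to 390 CPM in the top-score cells. Without ROS+ 1 no gene was called, while 12 were called without ROS- 1 and 30 without ROS- 2. DESeq2 called 2 genes, and a fit with the replicate number as a block called 93.

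The score genes chose these cells, so their levels in the 2 gates are a description, and no test of them is read. Nos2 was at 345 and 361 CPM in ROS+ and at 497 and 550 in ROS- top-score cells, so both ROS- libraries lay above both ROS+ libraries. Clec4e was at 1502 and 1143 against 1908 and 1686, in the same order. Inhba, Il6 and Il12a had overlapping ranges. Of 7 NADPH oxidase genes and of 21 glutathione, Nrf2 and scavenging genes none was called, with list medians of 0.19 and 0.07 against 0.01 for all genes. With 2 libraries each the spread was large, and these values do not show that the cells of both gates were alike.

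Whether the gate difference was the same in top-score and other base-gate cells was tested as an interaction. Of 10261 genes, edgeR called 11 (0.107%), with 8 higher (0.078%) and 3 lower (0.0292%) in ROS+ relative to ROS- libraries, and 473 had an unadjusted p under 0.05 (4.61%). Mmp12, a metalloelastase, was higher in the top-score cells of ROS+ libraries, with log2 ratios of top-score to other cells of 1.72 and 0.60 against 0.16 and -0.02 in ROS- libraries (interaction 0.98 ± 0.21). The interaction of Mmp12 was 0.60 without ROS+ 1 and 1.71 without ROS+ 2. It was not called with DESeq2, without TMM factors, with the top 10% or 25%, or with the top 15% of each library. Nor was it called with cells thinned to 3000 UMIs or without cells carrying markers of other types. Gm15056 rose in all 4 libraries, by 1.33 and 1.46 against 3.47 and 1.73, and its interaction (-0.98) was -0.32 and not called without ROS- 1. Ifitm1 fell in all 4, by 0.39 and 0.63 against 2.39 and 1.53 (interaction 1.34 ± 0.16). On leaving out each library in turn, Ifitm1 ran from 1.01 to 1.89, Ccl17 from 2.00 to 4.60 and S100a8 from -2.81 to -1.89. S100a8 was not called with thinning or without cells carrying markers of other types, which were chosen by S100a8 and Ccl17 among other genes. Ccl17 was not called with DESeq2 and turned to -0.17 without those cells. Of the 11 genes, Ifitm1 was called in each of these settings. The count was 60 without ROS- 2.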

How the data were processed

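Single-cell RNA was measured by 10x Chromium 3' libraries (v2), per the labels' protocols. The deposited values are raw UMI counts per gene and cell, and the submitters' processing notes name Cell Ranger 2.0.1, Seurat 3, R 3.4.2 and the mm10 build without their roles. Of 9079 barcodes, 9078 had 200 genes or more and a mitochondrial share of no more than 10% and were kept. The series' design text gives a count of 8701 cells, with a filter that the sources used here do not state. In sums of the top-score cells, replicate EAE libraries differed by more than sampling noise (chi-square per degree of freedom over genes 9.92 in ROS+ and 3.47 in ROS-). Other cells and the healthy libraries were not examined in this way.

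Counts were summed per library and cell set and tested with edgeR 4.0.16 (quasi-likelihood test, TMM, filterByExpr with a minimum count of 10, Benjamini-Hochberg adjustment over all genes tested, library as a block where each library gave both sums). The 17 genes of the rule, and those of the second rule between 2 states, were left out of these tests, apart from the gate test on 4 sums, which had no block and kept all genes. Alternatives used DESeq2 1.42.0, other scalings, filters and choices of cells, and thinning with seed 7. Analyses ran in R 4.3.3 and Python 3.11.15 (numpy 2.4.6, pandas 2.3.3, scipy 1.17.1, scanpy 1.11.5).

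The cells, the lists and the rules were chosen with earlier results of these data known. In the main comparison the text names, in each direction, the 12 called genes of largest fold change whose average log2 CPM reached 5 and which moved alike in all 4 libraries, and up to 4 genes of lowest p from each list. Other comparisons name up to 6 each way and the score genes. Any other gene was named after its values were seen. Of 487 list genes, 486 were in the files. Cells with markers of other types, and replicate 1 or 2 libraries alone, were alternatives added after seeing the data. Values of a few genes the rule names are not reported here.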

Additional observations from a re-analysis of the deposited data

Results flagged for a closer look

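For 11 genes the difference between top-score and other base-gate cells was not the same in the ROS+ and ROS- libraries (edgeR interaction, adjusted p under 0.05, 2 libraries each). Higher in the ROS+ libraries, as a log2 difference of differences, were Ccl22 (5.87), Ccl17 (2.55), Dusp2 (1.84), Ccnd2 (1.39), Ifitm1 (1.34), Ccl4 (1.22), Mmp12 (0.98) and Ifitm2 (0.70). Lower were S100a8 (-2.42), Cxcl3 (-1.41) and Gm15056 (-0.98). Ccl22, Ifitm2 and Cxcl3 were named after their values were seen. Single libraries decided many of these values. Not called without ROS+ 2 were Ccl22 (3.10), Dusp2 (1.33), Ccnd2 (1.19), Ccl4 (0.98) and Ifitm2 (0.75). Not called without ROS+ 1 were Mmp12 (0.60) and Ifitm2 (0.70), without ROS- 1 Gm15056 (-0.32), and without ROS- 2 Cxcl3 (0.09), Dusp2 (2.21) and Mmp12 (0.84). Still called but moved were Ccl17 (4.60 without ROS+ 2 and 4.10 without ROS- 2), Ccl22 (8.03 without ROS+ 1), Cxcl3 (-2.24 without ROS+ 2), Mmp12 (1.71 without ROS+ 2), and, without ROS- 2, Ccl4 (2.80), Ccnd2 (2.51) and Gm15056 (-2.06).

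In healthy libraries, which entered no test between groups, Il6 had a UMI in 4.07% and 5.73% of cells with microglial and not monocyte genes, where Nos2 and Inhba had none.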

How the results depend on the processing

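For top-score against other base-gate cells, the 1817 calls became 1007 with DESeq2, 1149 with cells thinned to 3000 UMIs, 541 with replicate 1 libraries alone, and 1018 (without ROS- 2) to 1704 on leaving out 1 library. The 592 calls against Saa3 cells became 315 with DESeq2 and 325 to 526 on leaving out 1 library, and the 1268 against Arg1 cells 591 and 573 to 1228. For the gate within top-score cells, the single call became 2 with DESeq2, 17 with no filter on low counts, 3 with the top 10%, 0 with the top 15% of each library, 0 without cells carrying markers of other types and 0 to 30 on leaving out 1 library. A replicate block gave 93 calls there. The gate fits kept the genes of the rule, so this count includes Nos2 and Clec4e, which chose the cells and are not read as results. The labels do not pair the libraries, and deviations of same-numbered libraries correlated at 0.41 over 2996 genes. The 11 interaction calls became 2 with DESeq2, 3 with thinning, 1 without cells carrying markers of other types and 8 to 60 on leaving out 1 library. The difference in share (-3.68 points) turned to 1.81 with replicate 1 libraries alone and ran from -14.0 (without ROS- 1) to 6.67 (without ROS- 2), being 1.18 without ROS+ 1. Without cells carrying markers of other types, which were chosen by S100a8, S100a9, Ccr7, Nkg7, Ccl17, Ccl22, Camp and like genes, the main-comparison log2 values of Ifng (1.30), Ccr7 (0.42), Nkg7 (0.90), Ccl17 (0.20) and Camp (0.72) turned positive, and the interaction of Ccl17 was -0.17. Camp was at 0.028 with thinning, and Ccl22 ran from -2.42 to 0.90 (without ROS- 2) on leaving out 1 library. The causes were not tested. Where a fit left 1 library in a gate, that library is assumed to vary like the others. Depth limits Il10 and Il12b, which were near 0 in all sets.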
